A study of Mus musculus with 6 samples.

Results

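The 10 genes described here are the transcriptional effectors and the main kinases and regulators of the Hippo pathway: the co-activators *Yap1* and *Wwtr1*, the DNA-binding factors *Tead1*, *Tead2*, *Tead3* and *Tead4*, the kinases *Lats1* and *Lats2*, and the regulators *Amotl2* and *Nf2*. They were taken by name from the 54418 gene identifiers of the count table, and all 10 were among the 21236 genes that passed the filter on low counts. RNA sequencing was done on mammary cells of female C57BL/6 mice that were 4 weeks old. The WT group (*Glis2*+/+) held 3 mice and the *Glis2* KO group (*Glis2*-/-, a germline deletion present in every cell of the body) held 3 mice, with 1 library per mouse. *Glis2* encodes a zinc finger transcription factor, and the labels name no treatment for either group. The glands were dissociated and live cells were sorted after staining for blood, endothelial and immune surface proteins (TER-119, CD31, CD45) and for CD24 and CD49f, which separate basal from luminal epithelium. The study describes the sequenced cells as mammary epithelial cells, and the labels do not say which CD24 and CD49f gate was kept.

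The Hippo pathway is a kinase cascade that restrains growth and responds to cell contact, cell shape and the stiffness of the surroundings. Merlin, the product of *Nf2*, and the angiomotins promote the activity of the LATS kinases at the membrane and junctions, and LATS1 and LATS2 phosphorylate YAP and TAZ so that they are held in the cytoplasm or degraded. When the kinases are inactive, YAP and TAZ enter the nucleus and bind TEAD factors, which contact DNA at the motif GGAATG and induce genes such as *Ccn1* and *Ccn2*. In the mammary gland YAP and TAZ are known for their activity in basal cells and in the choice between basal and luminal fate. Much of this regulation acts on proteins through phosphorylation and location, and RNA counts measure transcript amount only.

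Total counts lay between 24996524 and 31393917 per library, and the common biological coefficient of variation was 37.4%. *Glis2* was at 21.5 ± 1.83 CPM (SD, n = 3; CPM are counts scaled to library size with TMM normalization) in WT and at 14.5 ± 3.81 CPM (SD, n = 3) in *Glis2* KO cells. Between 252 and 671 *Glis2* counts were found per library, the log2 fold change was -0.57 with an SE of 0.22, and the adjusted p of edgeR's quasi-likelihood test was 0.906. Without *Glis2* KO library 1 the log2 fold change of *Glis2* was -0.37. In rescaled TPM, *Glis2* was at 28.8 ± 10 in WT and 30.5 ± 0.179 in *Glis2* KO cells (SD, n = 3), overlapping and with the higher mean in *Glis2* KO cells. Transcript was thus present in the libraries labelled *Glis2* KO, and which exons the deletion removes is not given in the sources used here. The summed level of 10 basal markers was 4683 to 6011 CPM in WT and 6398 to 7696 CPM in *Glis2* KO libraries, without overlap, and that of 10 luminal markers was 4008 to 6567 and 4052 to 6906 CPM. The summed level of 9 fibroblast markers was 2579 to 8274 CPM in WT and 2947 to 6508 CPM in *Glis2* KO libraries, and that of 6 endothelial markers was 145.3 to 680.8 and 232.8 to 709.3 CPM. The epithelial markers were thus present in all 6 libraries beside stromal ones. Immune markers (6 genes) summed to 14.5 to 27.7 CPM in WT and 27.6 to 58.7 CPM in *Glis2* KO libraries. Adipocyte markers (4 genes, of which 3 passed the filter and were summed) and skeletal muscle markers (5 genes) reached at most 19.0 and 41.8 CPM in any library. No marker was at 0 in all libraries. The part of these cell types in the values below was not tested beyond the measurements given beside them, and in such mixed samples fewer cells of a type and less RNA per cell cannot be told apart.

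None of the 10 genes passed the test for a difference between the genotypes (edgeR, with thresholds of 0.05 for the adjusted p and 0.58 for the size of the log2 fold change). Of all genes tested, 0% were called by this rule, and the smallest adjusted p over all genes was 0.392. An unadjusted p under 0.05 was reached by 0 of the 10 genes and by 5.32% of all genes (2.99% higher and 2.33% lower in *Glis2* KO cells). DESeq2 called 0 of the 10 as well, against 0.165% of the genes it tested. In 2 of the 10 genes, *Yap1* and *Nf2*, every *Glis2* KO library was higher in CPM than every WT library, and in 0 genes every one was lower, while 11.7% of all genes were separated in this way, 6.23% upwards and 5.50% downwards. In rescaled TPM, defined below, 0 of the 10 were separated upwards and 1, *Lats1*, downwards, beside 5.24% and 5.68% of all genes. The log2 fold changes lay between -0.18 and 0.39, with 7 above 0, 3 below 0 and a median of 0.10, beside 10961 of 21236 above 0 and a median of 0.01 over all genes tested. On the deposited log2(TPM + 1) scale the sign turned for *Yap1*, *Wwtr1*, *Tead1*, *Tead2*, *Tead3* and *Nf2* (below), with a median of -0.06 over all genes.

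**Figure D1:**
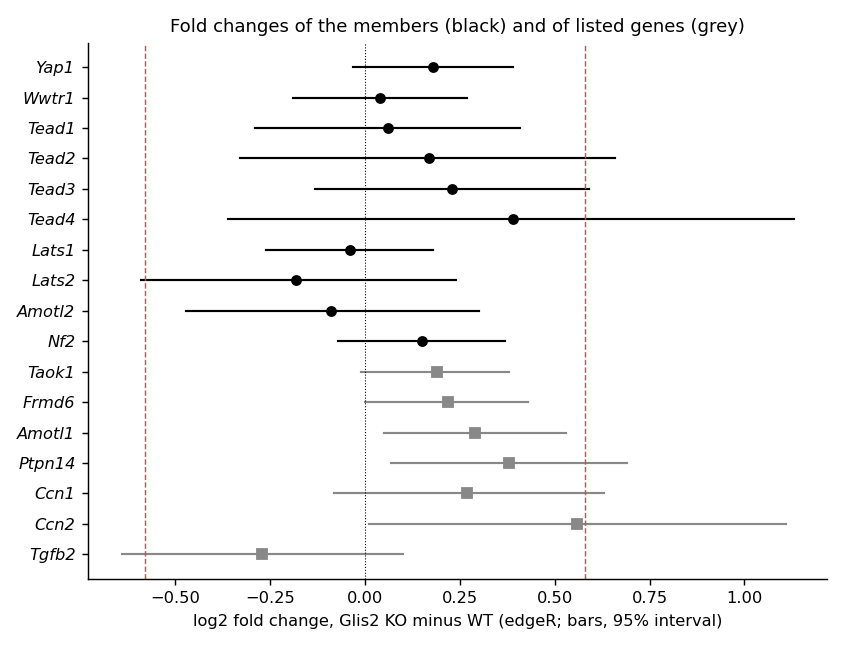
Log2 fold change, *Glis2* KO against WT, from edgeR (x axis) of the 10 genes (black) and of genes of the wider pathway and target lists (grey). Bars show the 95% confidence interval and dashed lines stand at -0.58 and 0.58, with 3 libraries per genotype. The grey genes are only those with separate genotypes in CPM or an unadjusted p under 0.05, so they were picked for a difference. The interval of each of the 10 genes includes 0, and among them that of *Tead4*, with the fewest counts, is the widest.

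To compare levels between genes, the deposited TPM values, which are corrected for transcript length, were rescaled to the same sum over protein-coding genes in each library, since Gm23935, annotated as a microRNA gene, alone held 83.0% to 85.7% of the TPM of each library. On this rescaled TPM scale the mean over the 6 libraries was lowest for *Tead4* and highest for *Amotl2*. *Amotl2* had 212.3 ± 45 (SD, n = 6), *Yap1* 198.4 ± 25, *Nf2* 152.7 ± 19.7, *Tead1* 140.6 ± 23.6 and *Tead2* 124.9 ± 40.4 rescaled TPM. *Wwtr1* had 59.6 ± 4.05, *Lats1* 54.9 ± 1.81, *Tead3* 45.4 ± 10.2 and *Lats2* 43.7 ± 13.9 rescaled TPM, and *Tead4* had 7.18 ± 2.61. Of the 9 neighbouring pairs in this order, the ranges over the libraries were separate in 2, between *Tead2* and *Wwtr1* and between *Lats2* and *Tead4*. *Amotl2* was above *Yap1* in 3 of 6 libraries and *Tead3* above *Lats2* in 3 of 6, so these neighbours did not differ beyond their spread. The order depends on the transcript lengths used: with CPM per kb of merged exons *Wwtr1* led with 26.1, ahead of *Amotl2* with 22.3, *Nf2* with 18.5, *Lats1* with 18.2 and *Yap1* with 17.9 CPM per kb, and *Tead4* was again last with 1.80.

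**Figure D2:**
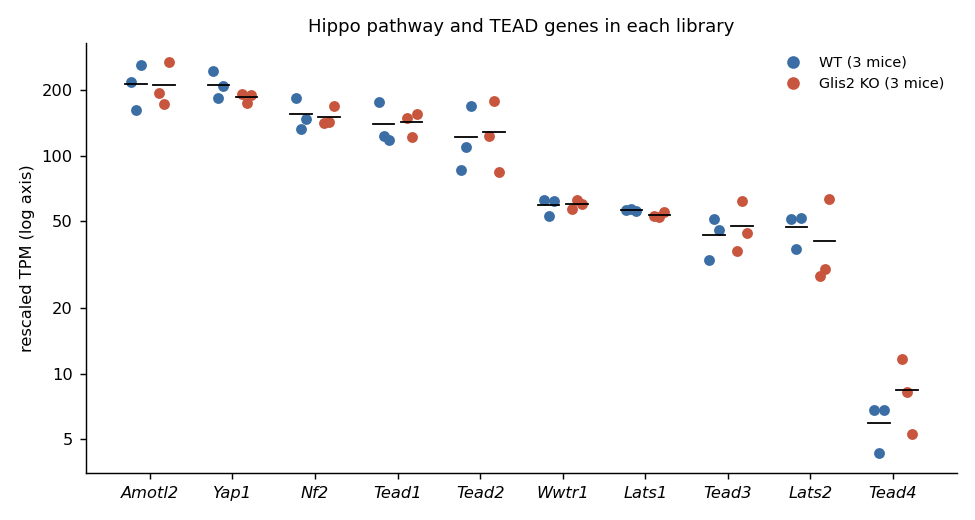
Level of the 10 genes in each of the 6 libraries (rescaled TPM, log axis), with 1 point per library and colours for the 3 WT and 3 *Glis2* KO libraries. *Tead4* lies below the other genes in every library, and WT and *Glis2* KO points are mixed in most genes.

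The co-activators were considered first. *Yap1* (ENSMUSG00000053110, chr9:7931999-8004596, minus strand, GRCm38) encodes YAP, which binds TEAD factors and activates transcription. *Wwtr1* (ENSMUSG00000027803, chr3:57455649-57575910, minus strand) encodes its paralog TAZ. The motif that TEAD factors bind, GGAATG or CATTCC on the other strand, was searched in the 250 bases before the annotated starts of RefSeq (GRCm38.p6), and *Yap1*, *Wwtr1*, *Tead3* and *Amotl2* held it. These are 4 of the 8 genes of the set with a window, beside 14.4% of 27025 genes with a window and 12.6% of 32851 windows. The match is a description of the letters and not a measured site. *Tead1* and *Tead4* had no entry. The windows of both co-activators and of *Amotl2*, which is itself a known YAP/TAZ target, are shown so that the position of the motif, in capitals, can be seen.
Yap1, chr9:8004597-8004846, minus strand, motif 141 to 136 bases before the start: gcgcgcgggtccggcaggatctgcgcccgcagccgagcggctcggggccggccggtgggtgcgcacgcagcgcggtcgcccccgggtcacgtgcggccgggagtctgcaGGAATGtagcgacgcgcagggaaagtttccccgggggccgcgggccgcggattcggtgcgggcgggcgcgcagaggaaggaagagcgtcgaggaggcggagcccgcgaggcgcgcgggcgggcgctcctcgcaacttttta
Wwtr1, chr3:57575911-57576160, minus strand, motif 136 to 131 bases before the start: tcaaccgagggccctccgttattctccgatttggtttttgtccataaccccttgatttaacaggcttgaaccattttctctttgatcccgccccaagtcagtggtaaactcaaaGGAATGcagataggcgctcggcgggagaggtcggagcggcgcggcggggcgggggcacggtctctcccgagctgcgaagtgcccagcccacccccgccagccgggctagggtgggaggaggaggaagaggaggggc
Amotl2, chr9:102717554-102717803, plus strand, motif 65 to 60 bases before the start: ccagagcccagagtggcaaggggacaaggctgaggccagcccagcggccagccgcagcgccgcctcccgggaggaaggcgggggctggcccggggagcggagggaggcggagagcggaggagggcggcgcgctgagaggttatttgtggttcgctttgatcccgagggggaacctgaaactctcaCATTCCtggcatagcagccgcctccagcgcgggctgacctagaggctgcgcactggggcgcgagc

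*Yap1* was at 165.8, 153.5 and 145.9 CPM in WT libraries 1 to 3 and at 171.3, 174.8 and 180.9 CPM in *Glis2* KO libraries 1 to 3. All 3 *Glis2* KO libraries were above all 3 WT libraries, by at least the gap between 165.8 and 171.3 CPM. The means were 155.1 ± 10.1 and 175.6 ± 4.85 CPM (SD, n = 3 each), the log2 fold change was 0.18 with an SE of 0.09 and a 95% interval of -0.03 to 0.39, and the adjusted p of edgeR was 0.919. In rescaled TPM the direction was the opposite. *Yap1* was at 243.9, 183.2 and 208.4 rescaled TPM in the WT libraries and at 191.9, 174.0 and 188.9 in the *Glis2* KO libraries. WT libraries 1 and 3 were above every *Glis2* KO library while WT library 2 was below 2 of them. The difference on the log2(rescaled TPM + 1) scale was -0.19 with an adjusted p of 0.884 in limma.

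Counts and TPM differ by the transcript length that Salmon assigned, so that length could be read back from the files by dividing one by the other. It was set to bases with 690 genes that have 1 annotated transcript. The implied length of *Yap1* was 1617, 1868 and 1616 bases in the WT libraries and 2047, 2221 and 2217 bases in the *Glis2* KO libraries. Every *Glis2* KO library was longer than every WT library, with means of 1700 ± 145 and 2161 ± 99 bases (SD, n = 3) and a log2 difference of 0.35. Of 11660 genes with such a value, 4.77% were longer in all 3 *Glis2* KO libraries and 4.56% shorter, and 2.92% were longer by at least the log2 difference of *Yap1*. *Yap1* has 10 annotated transcripts, and which of them carried the difference was not tested, since only sums per gene were used here. A non-coding gene on the other strand, Gm20416, shares 116 exonic bases with *Yap1* and had 8 to 39 counts per library.

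**Figure D3:**
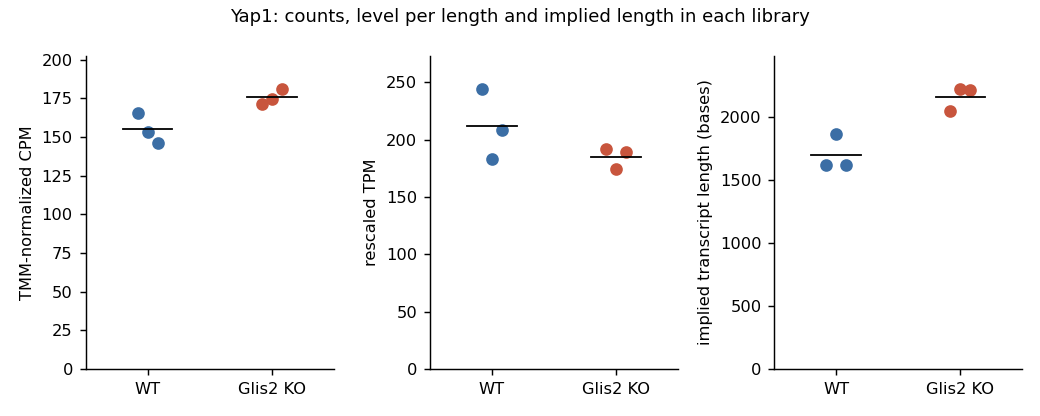
*Yap1* in each library on 3 scales: CPM, rescaled TPM and the transcript length in bases implied by counts and TPM, with 1 point per library and a line at the mean of each genotype (n = 3). CPM and implied length were higher in all 3 *Glis2* KO libraries than in all 3 WT libraries, and rescaled TPM overlapped with a lower *Glis2* KO mean.

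*Wwtr1* was at 126.4, 113.4 and 129.0 CPM in the WT libraries and at 118.9, 136.2 and 124.2 CPM in the *Glis2* KO libraries. The genotypes overlapped, and the lowest value was that of WT library 2. The means were 122.9 ± 8.37 and 126.4 ± 8.89 CPM (SD, n = 3), with a log2 fold change of 0.04, an SE of 0.10, a 95% interval of -0.19 to 0.27 and an adjusted p of 0.981 in edgeR. Its implied length lay between 4782 and 4800 bases in all 6 libraries, and its rescaled TPM values were 62.8, 52.7 and 62.2 in WT and 56.9, 62.7 and 60.0 in *Glis2* KO libraries. Within a library, the log2 ratio of *Yap1* to *Wwtr1* in rescaled TPM was 1.83 ± 0.11 in WT and 1.63 ± 0.14 in *Glis2* KO cells (SD, n = 3), a difference of -0.21 (two-sided exact permutation test, p = 0.20). The difference was -0.14, -0.22 and -0.25 without WT library 1, 2 or 3 and -0.27, -0.13 and -0.22 without *Glis2* KO library 1, 2 or 3. With CPM the same ratio was 0.34 ± 0.14 and 0.48 ± 0.10, a difference of 0.14 in the other direction (exact permutation p = 0.30). With 3 against 3 libraries this exact permutation test cannot go below p = 0.1.

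The TEAD factors bring YAP and TAZ to DNA, and all 4 paralogs had counts in every library. *Tead1* (chr7:112679318-112906807) was at 208.3, 154.0 and 156.3 CPM in the WT libraries and at 190.8, 150.8 and 197.9 CPM in the *Glis2* KO libraries. WT library 1 was the highest and *Glis2* KO library 2 the lowest, so that the genotypes overlapped. *Tead2* (chr7:45215753-45233644) was at 51.9, 70.6 and 68.3 CPM in WT and at 72.2, 91.7 and 50 CPM in *Glis2* KO libraries. Here *Glis2* KO library 2 was the highest and library 3 the lowest of all 6. The log2 fold change of *Tead1* was 0.06 with an SE of 0.15 (95% interval -0.29 to 0.41, adjusted p = 0.982 in edgeR), and that of *Tead2* was 0.17 with an SE of 0.22 (95% interval -0.33 to 0.66, adjusted p = 0.973).

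*Tead3* (chr17:28331671-28350817) was at 32.0, 39.2 and 29.3 CPM in WT libraries and at 39.2, 44.5 and 34.4 CPM in *Glis2* KO libraries. The highest value was in *Glis2* KO library 2, and WT library 2 lay above *Glis2* KO library 3, so that the genotypes overlapped. *Tead4* (chr6:128224288-128300823) was at 6.19, 3.89 and 6.75 CPM in WT and at 9.15, 7.81 and 5.05 CPM in *Glis2* KO libraries, from 111 to 234 counts per library. *Glis2* KO libraries 1 and 2 were above all WT libraries, and library 3 was not. The log2 fold change of *Tead3* was 0.23 with an SE of 0.16 (95% interval -0.13 to 0.59, adjusted p = 0.941 in edgeR). For *Tead4* it was 0.39 with an SE of 0.33 and a 95% interval of -0.36 to 1.13 (adjusted p = 0.941 in edgeR), and the interval includes differences of either sign.

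In rescaled TPM the 4 TEAD genes summed to 310.0 ± 25.9 in WT and 326.3 ± 41.1 in *Glis2* KO cells (SD, n = 3). *Tead1* and *Tead2* held most of that sum, in shares that varied more between mice than between genotypes. *Tead1* made up 58.4%, 42.8% and 34.7% of it in the WT libraries and 46.7%, 32.9% and 53.6% in the *Glis2* KO libraries. *Tead2* made up 28.4%, 38.0% and 49.8% in WT and 38.2%, 48.2% and 29.2% in *Glis2* KO libraries, so that on this scale the leading paralog was *Tead1* in 4 libraries and *Tead2* in 2. With CPM per kb of merged exons the order turned, with *Tead2* at 14.1 and *Tead1* at 13 CPM per kb and *Tead2* above *Tead1* in 4 of 6 libraries. *Tead3* held 11% to 17.7% and *Tead4* 1.49% to 3.66% of the sum. *Tead2* shares 13 exonic bases with *Cd37* on the other strand. Gm44462, annotated as a microRNA gene, lies within *Tead1* on its strand and shares no exonic bases with it.

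LATS1 and LATS2 are the kinases that phosphorylate YAP and TAZ. *Lats1* (ENSMUSG00000040021, chr10:7681214-7716460) was at 130.3, 141.3 and 131.3 CPM in WT libraries and at 121.0, 134.1 and 137.1 CPM in *Glis2* KO libraries. The genotypes overlapped, and the log2 fold change was -0.04 with an SE of 0.10 (95% interval -0.26 to 0.18, adjusted p = 0.981 in edgeR). In rescaled TPM *Lats1* was at 56.2, 57.0 and 55.6 in WT and at 52.8, 52.5 and 55.3 in *Glis2* KO libraries. On that scale every *Glis2* KO library was lower than every WT library, as in 5.68% of all genes, with a difference of -0.07 on the log2(rescaled TPM + 1) scale and an adjusted p of 0.961 in limma.

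*Lats2* (ENSMUSG00000021959, chr14:57689662-57758388, minus strand) was at 63.7, 46.1 and 66.2 CPM in WT libraries and at 49.2, 43.8 and 62.8 CPM in *Glis2* KO libraries. WT libraries 1 and 3 and *Glis2* KO library 3 were high and the other 3 low, so that the genotypes overlapped. The means were 58.7 ± 11 and 51.9 ± 9.80 CPM (SD, n = 3), with a log2 fold change of -0.18, an SE of 0.18, a 95% interval of -0.59 to 0.24 and an adjusted p of 0.953 in edgeR. The log2 ratio of *Lats2* to *Lats1* in rescaled TPM was -0.28 ± 0.29 in WT and -0.51 ± 0.61 in *Glis2* KO cells (SD, n = 3), a difference of -0.23 (exact permutation p = 0.700). In CPM the ratio was -1.21 ± 0.35 and -1.35 ± 0.25, a difference of -0.14 (exact permutation p = 0.500). In rescaled TPM the size of the difference moved with each single library: it was -0.15, -0.39 and -0.14 without WT library 1, 2 or 3 and -0.02, -0.08 and -0.58 without *Glis2* KO library 1, 2 or 3.

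The *Lats2* count has a limit of its own. Gm49361 (chr14:57642077-57746103, same strand) is an annotated gene whose transcript joins the first exons of *Lats2* to exons of its neighbour *Xpo4*, a nuclear transport gene. Of its 3287 bases, 2955 are shared with a *Lats2* transcript and 332 with *Xpo4* exons. The 60 bases around the junction are shown because they are where the Gm49361 and *Lats2* transcripts part: 40 bases of *Lats2* exon 6 (chr14:57696120-57696159) in lower case, then 20 bases of the next exon in capitals, which lie at chr14:57648505-57648524 for Gm49361 and at chr14:57694401-57694420 for *Lats2* (GRCm38, GENCODE M21 transcripts).
Gm49361: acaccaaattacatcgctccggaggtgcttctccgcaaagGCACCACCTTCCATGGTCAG
Lats2: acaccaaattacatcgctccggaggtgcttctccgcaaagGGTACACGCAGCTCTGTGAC

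Gm49361 had 0 counts in all 3 WT libraries and 107, 299 and 143 counts in *Glis2* KO libraries 1, 2 and 3. Its adjusted p was 0.392 in edgeR, the smallest of all genes and not past the threshold, and 3.48e-10 in DESeq2, which called it. It took 8.0%, 18.6% and 6.78% of the summed *Lats2* and Gm49361 counts of these 3 libraries and 0% in WT. With both added, the level was 63.7, 46.1 and 66.2 CPM in WT and 53.4, 53.7 and 67.4 CPM in *Glis2* KO libraries. The sum had a log2 fold change of -0.01 with an SE of 0.17 (adjusted p = 0.998 in edgeR), beside -0.18 for *Lats2* alone, and with *Xpo4* added as well it was -0.05 with an SE of 0.13 (adjusted p = 0.981). Salmon shares reads between transcripts with the same bases by estimation, and whether Gm49361 reads crossed the junction was not tested, since reads were not analysed here.

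**Figure D4:**
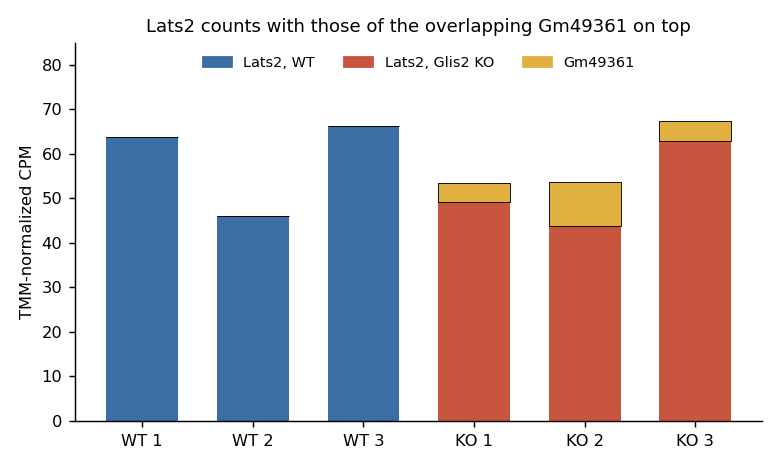
Stacked bars of CPM per library for *Lats2* and for the overlapping gene Gm49361, starting at 0, for 3 WT and 3 *Glis2* KO libraries. Gm49361 is at 0 in the WT libraries and adds 4.28, 9.98 and 4.57 CPM in the *Glis2* KO libraries.

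The remaining genes act upstream of or beside the kinases. *Nf2* (chr11:4765845-4849536) encodes Merlin, a membrane-linked protein that promotes LATS activity. It was at 123.6, 114.6 and 120.7 CPM in WT and at 134.2, 140.2 and 123.7 CPM in *Glis2* KO libraries. The genotypes did not overlap, but the gap between WT library 1 and *Glis2* KO library 3 was that between 123.6 and 123.7 CPM. The log2 fold change was 0.15 with an SE of 0.10, a 95% interval of -0.07 to 0.37 and an adjusted p of 0.940 in edgeR, and on the log2(rescaled TPM + 1) scale the difference was -0.03 (adjusted p = 0.993 in limma).

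*Amotl2* (chr9:102716672-102733418) encodes an angiomotin that binds YAP at junctions and is also induced by it. It was at 156.1, 110.1 and 167.3 CPM in WT and at 134.9, 119.2 and 154.0 CPM in *Glis2* KO libraries. Library 2 of each genotype was the lowest of its group and the genotypes overlapped. The log2 fold change was -0.09 with an SE of 0.17 (95% interval -0.47 to 0.30, adjusted p = 0.977 in edgeR).

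Across the 6 libraries several of the 10 genes moved with the marker level of a cell type. These correlations are descriptions over 6 libraries that share depth and scaling, chosen after their values were seen. Each gene's log2 CPM was set against the mean log2 CPM of a marker list. *Amotl2* followed the fibroblast markers, whose sum was 7977, 2579 and 8274 CPM in WT and 4733, 2947 and 6508 CPM in *Glis2* KO libraries, with Pearson's r = 0.99 and Spearman's rho = 0.94. *Lats2* followed them with r = 0.93 and rho = 0.89, and *Tead3* moved against them with r = -0.84 and rho = -0.77. These associations were not particular to fibroblast markers: *Amotl2* had r = 0.90 with endothelial markers, *Lats2* 0.89 with adipocyte and 0.82 with endothelial markers, and *Tead3* -0.94 with adipocyte and -0.87 with skeletal muscle markers. Without the 2 libraries farthest from the median of the fibroblast markers the r values were 0.94, 0.96 and -0.94. *Tead1* moved against the luminal markers (r = -0.91, rho = -1.0, and r = -0.82 without 2 libraries) and *Tead2* with them (r = 0.95, rho = 0.77, and r = 0.77 without 2 libraries). Nor were these particular to luminal markers: *Tead1* had r = 0.81 with endothelial markers, and *Tead2* -0.73 with endothelial and -0.72 with adipocyte markers. *Yap1* followed the basal markers (r = 0.94, rho = 0.94, and r = 0.80 without 2 libraries), and these markers, like *Yap1*, did not overlap between the genotypes, so that genotype and marker level cannot be told apart for *Yap1*. With the fibroblast level as a covariate in edgeR, the log2 fold change was -0.01 for *Amotl2* and -0.11 for *Lats2*, beside -0.09 and -0.18 without it, and 0.18 for *Yap1*, as without it.

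**Figure D5:**
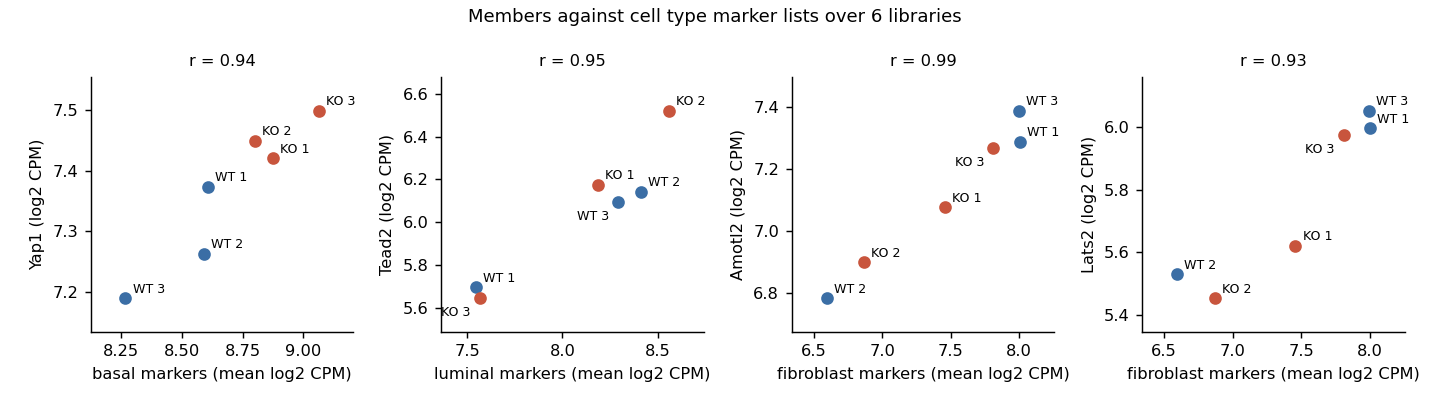
Each of the 6 libraries as 1 point, with the mean log2 CPM of a marker list on the x axis and a gene's log2 CPM on the y axis. Shown are *Yap1* with basal, *Tead2* with luminal, and *Amotl2* and *Lats2* with fibroblast markers. *Amotl2* and *Lats2* are higher in libraries with more fibroblast marker CPM, and *Tead2* is higher in libraries with more luminal marker CPM.

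Of the 45 pairs among the 10 genes, *Lats2* and *Amotl2* varied together (r = 0.95, rho = 0.94) and *Lats2* and *Tead3* inversely (r = -0.95, rho = -0.94). *Tead3* and *Amotl2* had r = -0.88, *Tead4* and *Lats1* r = -0.86 and *Tead4* and *Nf2* r = 0.83. The paralogs *Tead1* and *Tead2* had r = -0.79 and the paralogs *Yap1* and *Wwtr1* r = 0.22. Among 9926 genes with a mean of at least 10 CPM, those most like *Yap1* over the 6 libraries were *Bag5* (r = 0.995), *Ehbp1l1* (r = 0.992) and *Naa38* (r = 0.991), and those most like *Wwtr1* were *Tbk1* (r = 0.987), *Oma1* (r = 0.987) and *Pogk* (r = 0.980). With so many genes and 6 libraries, r values of this size are given as a description only.

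The wider pathway was read from the same fit. Of 32 other Hippo genes, which include the MST kinases, their scaffolds and the STRIPAK subunits, 30 were tested. *Vgll1* had 0 counts in every library and *Vgll2* 0 to 24. None of the 30 was called by edgeR, 15 had a log2 fold change above 0 and 15 below, and their median was 0.00. The highest mean levels were those of *Slmap* (336.3 rescaled TPM), *Map4k4* (282.9) and *Strn4* (267.1). With CPM per kb of merged exons *Fat1*, named after its values were seen, led instead with 66.0, ahead of *Map4k4* with 38.4 and *Slmap* with 31.3, and *Strn4* had 15.6 CPM per kb. All *Glis2* KO libraries were above all WT libraries in *Taok1*, *Frmd6*, *Amotl1* and *Ptpn14*, and none of the 30 genes was separated downwards, beside the 6.23% and 5.50% of all genes given above. This is in CPM, and in rescaled TPM *Taok1* was still separate while *Frmd6*, *Amotl1* and *Ptpn14* overlapped.

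*Ptpn14*, a phosphatase that binds YAP and promotes its cytoplasmic retention, was at 232.6, 199.8 and 163.1 CPM in WT and at 248.2, 248.3 and 279.6 CPM in *Glis2* KO libraries. Its log2 fold change was 0.38 with an SE of 0.14 and a 95% interval of 0.07 to 0.69, and it did not pass adjustment over all genes (adjusted p = 0.906 in edgeR). *Amotl1*, the paralog of *Amotl2*, was at 271.9, 248.7 and 216.9 CPM in WT and at 285.9, 305.7 and 307.1 CPM in *Glis2* KO libraries. Its log2 fold change was 0.29 with an SE of 0.11 (95% interval 0.05 to 0.53, adjusted p = 0.906 in edgeR), beside the -0.09 of *Amotl2*. These were the 2 genes of the list with an unadjusted p under 0.05, both higher, where 2.99% of all genes were higher by that rule. The basal markers did not overlap between the genotypes either, so that genotype and basal marker level cannot be told apart for *Ptpn14* and *Amotl1*. *Taok1*, a kinase upstream of MST, had a log2 fold change of 0.19 with an SE of 0.09, and *Frmd6*, which acts with Merlin, 0.22 with an SE of 0.10, and both had an adjusted p of 0.906 in edgeR. On the opposite strand, *Ptpn14* shares 177 exonic bases with Gm26574 and *Taok1* 94 with *Abhd15*.

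Transcripts that YAP and TAZ are known to induce give a readout of their activity, and a list of 20 such genes, without *Lats2* and *Amotl2*, was read from the fit. None was called by edgeR, 16 had a log2 fold change above 0 and 4 below, and the median was 0.13, beside 0.01 over all genes. Over all genes, 10961 of 21236 were above 0. The 10 basal markers were all above 0, with a median of 0.42, and their part in the target values was not tested. An unadjusted p under 0.05 was reached by 2 of the 20, *Ptpn14* and *Ccn2*, both higher, beside 5.32% of all genes and 2.99% that were higher. *Ptpn14* is also in the list of other Hippo genes, so it is counted in both lists. *Ccn1*, which encodes a secreted matrix protein, had the highest level of the list with 515.6 rescaled TPM, ahead of *F3* with 209.1 and *Axl* with 152.3. With CPM per kb of merged exons *Ccn1* (217.2) and *F3* (56.2) still led. *Axl*, with 23.0 CPM per kb, was then below *Gadd45b* (31.1), *Igfbp3* (30.0) and *Ccn2* (25.2). *Ccn1* was at 442.0, 304.5 and 444.6 CPM in WT and at 444.7, 457.1 and 537.9 CPM in *Glis2* KO libraries. The genotypes were separate by the gap between 444.6 and 444.7 CPM, and the log2 fold change was 0.27 with an SE of 0.16 (adjusted p = 0.924 in edgeR). It was 0.12 without WT library 2 and 0.17 without *Glis2* KO library 3.

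*Ccn2*, a growth factor of the same family, was at 45.3, 72.8 and 56.8 CPM in WT and at 57.8, 97.9 and 101.8 CPM in *Glis2* KO libraries. *Glis2* KO libraries 2 and 3 were above every WT library, whereas library 1 lay within the WT range. Its log2 fold change was 0.56 with an SE of 0.24, a 95% interval of 0.01 to 1.11 and an adjusted p of 0.906 in edgeR, and 665 of its exonic bases are shared with the antisense gene Gm15270. *Tgfb2*, which encodes a TGF-β ligand, was at 18.5, 19.0 and 22.3 CPM in WT and at 15.7, 17.7 and 16.1 CPM in *Glis2* KO libraries. It was the only gene of the list with every *Glis2* KO library below every WT library in CPM (log2 fold change -0.27, SE 0.16, adjusted p = 0.932 in edgeR), and it shares 124 exonic bases with the antisense gene Gm29491. In CPM, *Ptpn14* and *Ccn1* were the 2 of the 20 separated upwards, beside 6.23% of all genes, and *Tgfb2* the 1 separated downwards, beside 5.50%. In rescaled TPM the genotypes overlapped for all 3, and *Glis2* KO library 3 had the highest *Tgfb2* value, 24.7. On that scale *Ccdc80*, named after its values were seen, was separated downwards, at 76.7, 47.6 and 70.0 in WT and 45.2, 17.4 and 31.1 in *Glis2* KO libraries, whereas its CPM overlapped. *Nuak2*, also named after its values were seen, was separated upwards on that scale, at 8.16, 18.3 and 22.7 in WT and 27.2, 28.6 and 33.4 in *Glis2* KO libraries, and its CPM overlapped as well. On this scale 5.24% of all genes were separated upwards and 5.68% downwards. The motif GGAATG stood in the window before the start of 5 of 13 listed genes with an entry, or 38.5% (*Ccn1*, *Ankrd1*, *Axl*, *Crim1* and *Ptpn14*). Over the 6 libraries, Pearson's r of the 20 genes with *Amotl2* ranged from -0.79 for *Arhgef17* to 0.95 for *Ccdc80*. It was 0.89 for *Asap1* and 0.85 for *Axl*, *Fjx1* and *Igfbp3*, whereas it was -0.40 for *Ccn2* and -0.15 for *Ptpn14*. *Amotl2* itself followed the fibroblast markers (r = 0.99, above), so that following *Amotl2* and following these markers cannot be told apart here.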

How the data were processed

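RNA from 6 libraries, 1 per mouse, was analysed. The authors estimated counts with Salmon 1.2.1 on an mm10 transcriptome and summed them per gene, and the deposited expected counts are whole numbers without normalization. The authors also deposited TPM values as log2(TPM + 1). The library kit is stranded, and the strand setting of the counting is not given in the sources used here, so genes that share exonic bases with a named gene on the opposite strand are given beside it where the overlap was looked up. Of 54418 identifiers, 54166 matched GENCODE M21 (GRCm38).

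The 10 genes, the lists and the tests were chosen with earlier results of these data known. Counts were tested with edgeR 4.0.16 (R 4.3.3; filterByExpr, TMM, quasi-likelihood test over 21236 genes, Benjamini-Hochberg adjustment), and genes were called with the study's thresholds, 0.05 for the adjusted p and 0.58 for the size of the log2 fold change. Ratios were compared by exact permutation tests. The genes named are the 10, *Glis2*, list genes with separate genotypes or an unadjusted p under 0.05, the 3 most abundant of each list, genes overlapping the 10 on their strand, and the 3 genes most correlated with *Yap1* and with *Wwtr1*. Other genes fall outside this rule and were chosen after their values were seen. They are *Xpo4*, Gm23935, *Fat1*, *Vgll1*, *Vgll2* and genes overlapping on the opposite strand. Target genes named for a motif, for r with *Amotl2*, for rescaled TPM or for CPM per kb also fall outside it. Alternatives were DESeq2 1.42.0 with apeglm 1.24.0, other filters and scalings, limma 3.58.1 on log2(TPM + 1) and log2(TPM + 0.1), a replicate block and leaving out each library. A fibroblast marker covariate and sums of *Lats2* with overlapping genes were also run. The limma fit of rescaled TPM, the sum of *Lats2* with Gm49361 alone and the implied length were chosen after seeing the data. The script was tested on simulated data. No library was a copy of another (chi-square per degree of freedom at least 20.3).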

Additional observations from a re-analysis of the deposited data

How the results depend on the processing

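The count of the 10 genes called was 0 under every alternative run, as were those of the 30 tested Hippo genes and the 20 target genes. Over all genes, where edgeR called 0, DESeq2 called 45, edgeR without a filter on low counts 40, edgeR with the fibroblast covariate 5, limma on log2(TPM + 0.1) 1 and limma on log2(rescaled TPM + 1) 1, and leaving out 1 library gave 0 each time. The cause was not tested. The median over all genes was 0.01 in edgeR, -0.06 with log2(TPM + 1) and -0.14 with log2(TPM + 0.1). On these scales the sign turned for *Yap1* (-0.33 and -0.34), *Wwtr1* (-0.12 and -0.14), *Tead1* (-0.11 and -0.11), *Tead2* (-0.08 and -0.09), *Tead3* (-0.03 and -0.03) and *Nf2* (-0.17 and -0.19), so that relative to the first median *Tead3* was above it and the other 5 below, and relative to the second *Wwtr1*, *Tead1*, *Tead2* and *Tead3* were at or above it. With rescaled TPM, *Yap1* was at -0.19 and *Nf2* at -0.03, and shrunken DESeq2 values were near 0 (*Yap1* -3.6e-05). Leaving out 1 library also turned the sign of *Wwtr1* (-0.02 to 0.08), *Tead1* (-0.03 to 0.20), *Tead2* (-0.07 to 0.35), *Lats1* (-0.09 to 0.01, with 1.0e-03 as a second value above 0) and *Amotl2* (-0.25 to 0.03). It left the sign but moved the size of *Lats2* (-0.35 without KO 3 to -0.07 without KO 2), *Tead3* (0.13 without KO 2 to 0.36 without WT 2) and *Tead4* (0.18 without WT 2 to 0.58 without KO 3). The *Yap1* to *Wwtr1* ratio was 0.14 in CPM. Same-numbered libraries deviated together with correlations of -0.0218, 0.173 and 0.0233, so the numbers were not taken as pairs, and the replicate block called 0 genes and left *Yap1* at 0.18.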
